A study of Zea mays with 6 samples.

Results

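Dehydrins, late embryogenesis abundant (LEA) proteins and ABA-ripening proteins were followed in maize roots on 18 probe sets, each of which is a bundle of short probes for 1 transcript. They are 18 of the 12255 probe sets in the authors' table of the comparison, and of the 17734 on the array. An ABA- and ripening-inducible-like probe set, ERD4 and mlg3 were taken by their identifiers. The others were taken by the gene symbols dhn1 and esp5 or by words in the array annotation (dehydrin, late embryogenesis, LEA protein, embryo specific protein, ripening-inducible, responsive to dehydration, water stress). The difference between intercropped and monocropped roots had helped to pick these members. That difference is therefore given below as a description, with no test and as support for nothing. The 18 comprise 4 dehydrin probe sets, 3 of LEA and embryo proteins, 1 of ERD4 and 10 of ABA-ripening proteins. A gene symbol was given for 9 of them, which stand for 7 genes.

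The intercropped group held 3 samples of maize roots (Zea mays, cultivar Nongda108) from plants that shared their soil with peanut (cultivar Luhua14). The monocropped group held 3 samples from maize of the same cultivar with no peanut. All plants stood in a greenhouse under natural light in a fertilised calcareous sandy soil, and the roots were sampled at the reproductive stage. Each sample was hybridised to 1 single-colour Affymetrix maize array. The labels do not state whether the samples were separate plants, pots or pools, so the spread between arrays may be technical.

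LEA proteins are small, very hydrophilic proteins that build up in plant embryos as seeds dry, and in other organs when cells lose water. Dehydrins are one group of them and are thought to shield membranes and proteins. Many of their genes respond to abscisic acid (ABA), the hormone that accumulates in drying tissue. It acts through receptors, protein phosphatases of type 2C, protein kinases and transcription factors that bind ABA-responsive promoters. ASR proteins, named for abscisic acid, stress and ripening, are another hydrophilic family, described first in tomato. No promoter or protein sequences of these genes were used here.

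Array medians ran from 135 to 142 in signal, and 25.4% to 27.7% of probe sets were below 50 on an array. The 7 probe sets of root markers summed to 788 to 1065 in intercropped roots and 787 to 1174 in monocropped roots. Besides zrp4, this list held only probe sets of nas1, nas2 and ys1. It therefore mostly reads genes of iron chelation and transport, and is no general measure of root content. Of the 4 tested, 1 had a higher and 3 a lower mean in intercropped roots (median log2 difference -0.39). The higher one, zrp4, a root-preferential methyltransferase, had 427, 560 and 438 in intercropped roots against 485, 208 and 372 in monocropped roots, which overlapped. The others were 2 probe sets of nas1, a nicotianamine synthase (log2 differences -0.40 and -0.45), and ys1, a transporter of chelated iron (-0.37), each with all intercropped arrays below all monocropped arrays. The summed signal of 24 probe sets of seed storage proteins was 7278 to 8104 in intercropped roots and 8055 to 8127 in monocropped roots, and 10 of the 24 were below 50 on all arrays. The 22 green tissue probe sets summed to 3331 to 4294 in intercropped roots and 3559 to 4272 in monocropped roots. For 62 probe sets of dividing tissue the sums were 38205 to 46752 in intercropped roots and 41411 to 48751 in monocropped roots. Of those tested, 16 of 56 had a higher mean log2 signal in intercropped roots, beside 51.9% over all probe sets tested. The same held for 7 of 20 tested green tissue and 5 of 13 tested seed storage probe sets. Median log2 differences were -0.13 for dividing tissue, -0.06 for green tissue and -0.09 for seed storage. Control probe sets for actin gave a ratio of the 3′ over the 5′ signal of 4.39 on the first intercropped array and of 2.07 to 2.48 on the other 5. The same ratio for GAPDH did not set that array apart, at 2.28 beside 1.87 to 2.30 on the others.

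Of the 18 members, 16 had a higher mean log2 signal in intercropped than in monocropped roots and 2 a lower one, beside 51.9% higher among all 13116 probe sets tested. In 11 of the 18 all intercropped arrays lay above all monocropped arrays, beside 8.29% of the probe sets tested. In 0 of the 18 they all lay below, beside 8.69% of those tested. The median log2 difference (intercropped minus monocropped) was 0.54 over the members and 0.01 over all probe sets tested. By limma's moderated test with Benjamini-Hochberg adjustment, 0 probe sets of the whole array passed an adjusted p of 0.05 (0%), while 1457 (11.1%) had an unadjusted p below 0.05. All 18 members met the condition for testing, a signal of 50 or more on 3 or more arrays. Mlg3, esp5 and esp1 reached 50 on all 3 intercropped arrays but on fewer than 3 monocropped arrays, so they passed through the intercropped group. In whole roots, a lower share of cells that hold a transcript and less of it per cell cannot be told apart.

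Dhn1 encodes the dehydrin also known as RAB17 or LEA2, which is induced by ABA in maize embryos and in water-stressed leaves. It had signals of 1043, 3686 and 1919 in intercropped roots, against 654, 129 and 657 in monocropped roots. The groups did not overlap, but the second intercropped array was the highest of the 6 and the second monocropped array the lowest by far. The log2 difference was 2.35 ± 0.70 (SE, n = 3 each), a 5.10-fold higher geometric mean in intercropped roots. Without the second array of both groups, a check added after the values were seen, the log2 difference was 1.11.

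Dhn2, another dehydrin gene, was read by 3 probe sets that share matched transcripts, so they are repeat readings of 1 gene. One had 2660, 3048 and 2484 in intercropped roots, against 1888, 597 and 1928 in monocropped roots. Another had 2577, 3265 and 2487 in intercropped roots, against 2008, 641 and 2045 in monocropped roots. The last had 3093, 3691 and 2905 in intercropped roots, against 2328, 773 and 2399 in monocropped roots. All 3 showed tight intercropped arrays, and a second monocropped array far below the other two. Their log2 differences were 1.07 ± 0.43, 1.00 ± 0.43 and 0.98 ± 0.41 (SE, n = 3 each). Without the second monocropped array they were 0.51, 0.44 and 0.44.

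**Figure D1:**
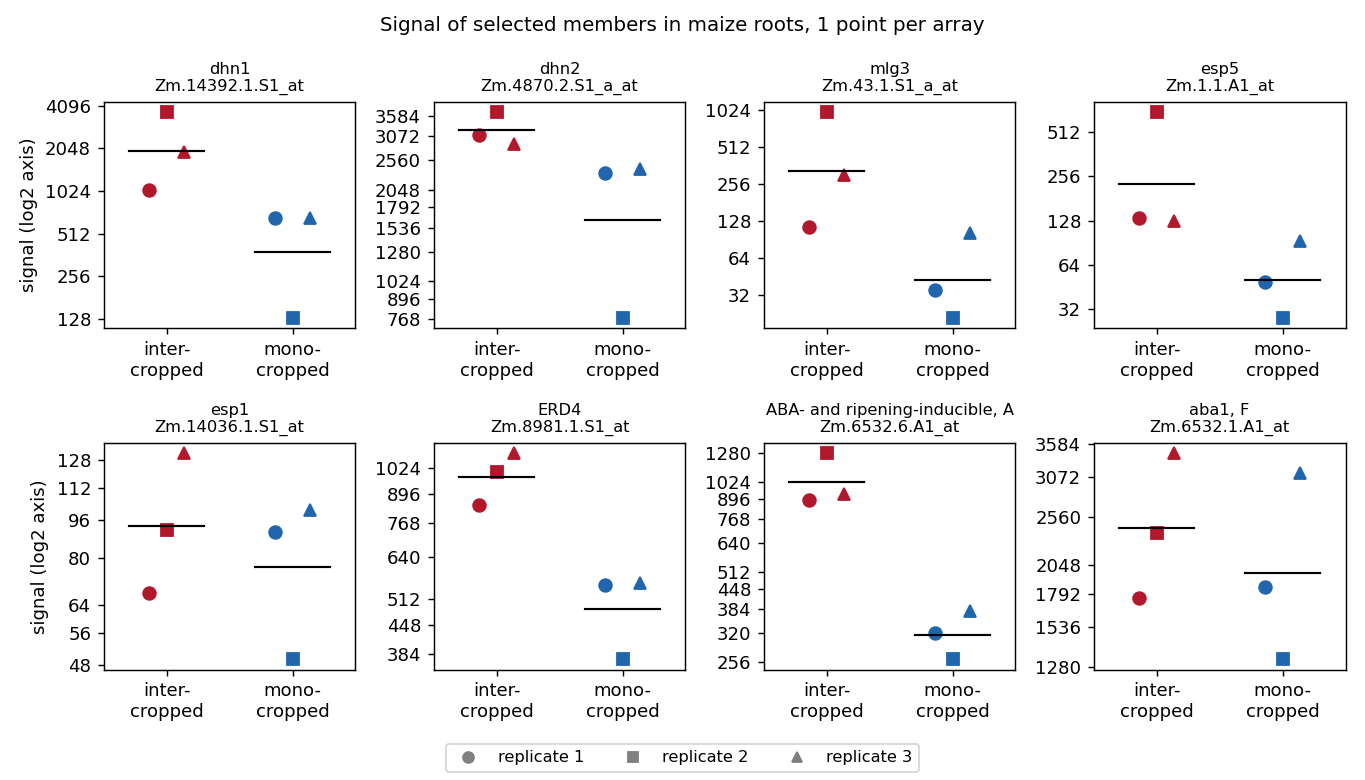
Signal on a log2 axis for 8 members, with intercropped arrays on the left and monocropped arrays on the right of each panel. Each point is 1 array, shaped by replicate number, and the line is the geometric mean of the 3. In dhn1, dhn2, mlg3, esp5, ERD4 and ABA-ripening probe set A the groups do not overlap, while in esp1 and aba1 they do, and the second monocropped array is the lowest point in all 8 panels.

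The gene mlg3 encodes a LEA protein of group 3, a class built of short repeats that can fold into helices as water is lost. Its signals were 114, 980 and 302 in intercropped roots, against 34.7, 20.6 and 102 in monocropped roots. The lowest intercropped array was just above the highest monocropped array, and only 1 monocropped array reached 50. On the log2 scale the difference was 2.95 ± 0.84 (SE, n = 3 each). With 32 added to each signal before the log2, which damps dim values, it was 2.24, beside 2.23 for dhn1. It was 1.64 without the second array of both groups.

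Esp5 is described in the array annotation as the LEA protein EMB5. It had 133, 695 and 128 in intercropped roots, against 48.7, 27.9 and 93.1 in monocropped roots. The groups stood apart, and the high intercropped mean came from the second array, since the first and the third were far nearer to the highest monocropped array. The log2 difference was 2.18 ± 0.71 (SE, n = 3 each), 1.38 without the second intercropped array and 0.95 without the second array of both groups.

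Esp1 was described from an embryo transcript that ABA induces. In the reference annotation it is the direct neighbour of esp5, with 0 genes between them. Its signals were 67.8, 91.6 and 132 in intercropped roots, against 90.9, 49.4 and 101 in monocropped roots. These ranges overlapped, unlike those of esp5. Its log2 difference was 0.29 ± 0.34 (SE, n = 3 each) and was -0.02 without the second array of both groups.

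ERD4, an early-responsive-to-dehydration protein, is annotated as a membrane protein with spans across the membrane, unlike the soluble LEA proteins. It had signals of 844, 1004 and 1108 in intercropped roots, against 551, 373 and 557 in monocropped roots. The gap between the groups was wider than the spread of either. ERD4 had a log2 difference of 1.01 ± 0.19 (SE, n = 3 each), and of 0.80 without the second array of both groups.

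The 10 ABA-ripening probe sets carry 1 cluster number of the array's design, but the platform annotation places 9 of them in 7 transcript clusters and gives none for the last. They are lettered A to J here, by falling log2 difference. They differed among themselves. A higher mean log2 signal in intercropped roots was found for 8, beside 51.9% of all probe sets tested. In 4 all intercropped arrays lay above all monocropped arrays, beside 8.29% of those tested. Among these 4, C, D and H read 1 transcript cluster. The median log2 difference of the 10 was 0.32. Probe set A, the ABA- and ripening-inducible-like one taken by its identifier, had 886, 1272 and 934 in intercropped roots, against 320, 261 and 378 in monocropped roots. The groups lay far apart, more so than the arrays within either. The log2 difference was 1.69 ± 0.20 (SE, n = 3 each), a 3.22-fold higher geometric mean, and it was 1.39 without the second array of both groups.

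Aba1, the named ASR gene of the set (also asr1), was read by probe set F. Its signals were 1760, 2375 and 3432 in intercropped roots, against 1850, 1325 and 3132 in monocropped roots. The groups overlapped, with the third array the brightest in both. Its log2 difference was 0.30 ± 0.35 (SE, n = 3 each), and it was 0.01 without the second and 0.63 without the third monocropped array. Probe set B, which shares 3 matched transcripts with aba1 and 2 with probe set A, had 380, 608 and 977 in intercropped roots, against 322, 252 and 784 in monocropped roots. It too was brightest on the third array of both groups, and the groups overlapped, with a log2 difference of 0.61 ± 0.48. That difference was 0.27 without the third intercropped array, 0.28 without the second and 1.09 without the third monocropped array.

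Another transcript cluster was read by 3 probe sets, which had small differences. Probe set C had 2041, 2275 and 2365 in intercropped roots, against 1706, 1448 and 1634 in monocropped roots, with a log2 difference of 0.48 ± 0.11. Probe set D had 1330, 1649 and 1508 in intercropped roots, against 1171, 966 and 1120 in monocropped roots, with a log2 difference of 0.46 ± 0.13. Probe set H had 1486, 1762 and 1516 in intercropped roots, against 1475, 1197 and 1296 in monocropped roots, with a log2 difference of 0.27 ± 0.12. None of the 3 had overlapping groups, although for H the gap was small. Without the second array of both groups the log2 differences were 0.40 for C, 0.31 for D and 0.12 for H. C and H carry the identifier suffix that marks probes shared with other sequences, so the ASR probe sets may read one another's genes.

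The other 4 ASR probe sets overlapped between the groups. Probe set E had 183, 100.0 and 84.0 in intercropped roots, against 107, 73.7 and 96.5 in monocropped roots (log2 difference 0.34 ± 0.30). Probe set G had 265, 199 and 360 in intercropped roots, against 161, 228 and 282 in monocropped roots (0.29 ± 0.28). These leaned to intercropped roots through 1 or 2 arrays. Probe set I had 52.4, 36.5 and 57.0 in intercropped roots, against 29.3, 60.0 and 63.4 in monocropped roots (-0.01 ± 0.34). Probe set J had 325, 287 and 313 in intercropped roots, against 316, 337 and 308 in monocropped roots (-0.06 ± 0.12). Probe set I was near the signal limit of 50, and J was nearly flat over the 6 arrays.

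**Figure D2:**
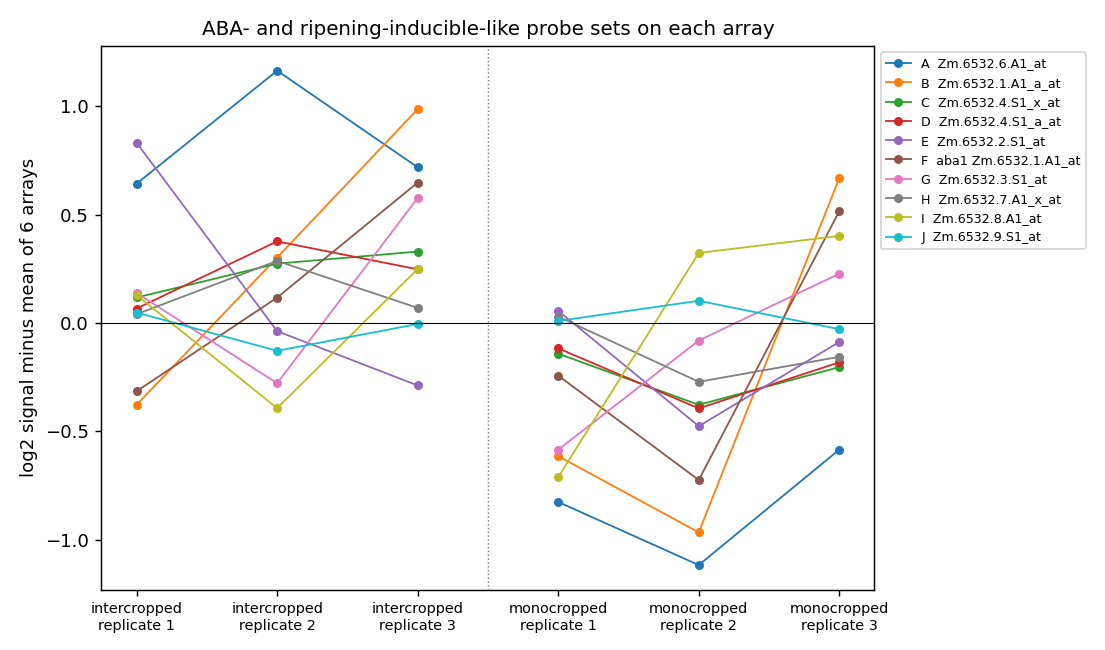
Log2 signal minus its mean over 6 arrays for the 10 ABA-ripening probe sets, with intercropped arrays on the left and monocropped arrays on the right. Lines join the arrays of 1 group only to guide the eye. Probe set A is far above 0 in intercropped and far below 0 in monocropped roots, aba1 (F) and B are brightest on the third array of both groups, and J stays near 0.

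A further pair of ASR-related probe sets fell outside the words of the rule and did not follow probe set A. A second probe set of aba1 had 93.4, 73.7 and 85.7 in intercropped roots, against 74.7, 69.2 and 162 in monocropped roots. The other, titled Asr protein, had 2945, 2716 and 3460 in intercropped roots, against 3600, 4054 and 3756 in monocropped roots. Its intercropped arrays were all below its monocropped arrays, with a log2 difference of -0.33 ± 0.11 (SE, n = 3 each) and an adjusted p of 0.348 by limma.

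**Figure D3:**
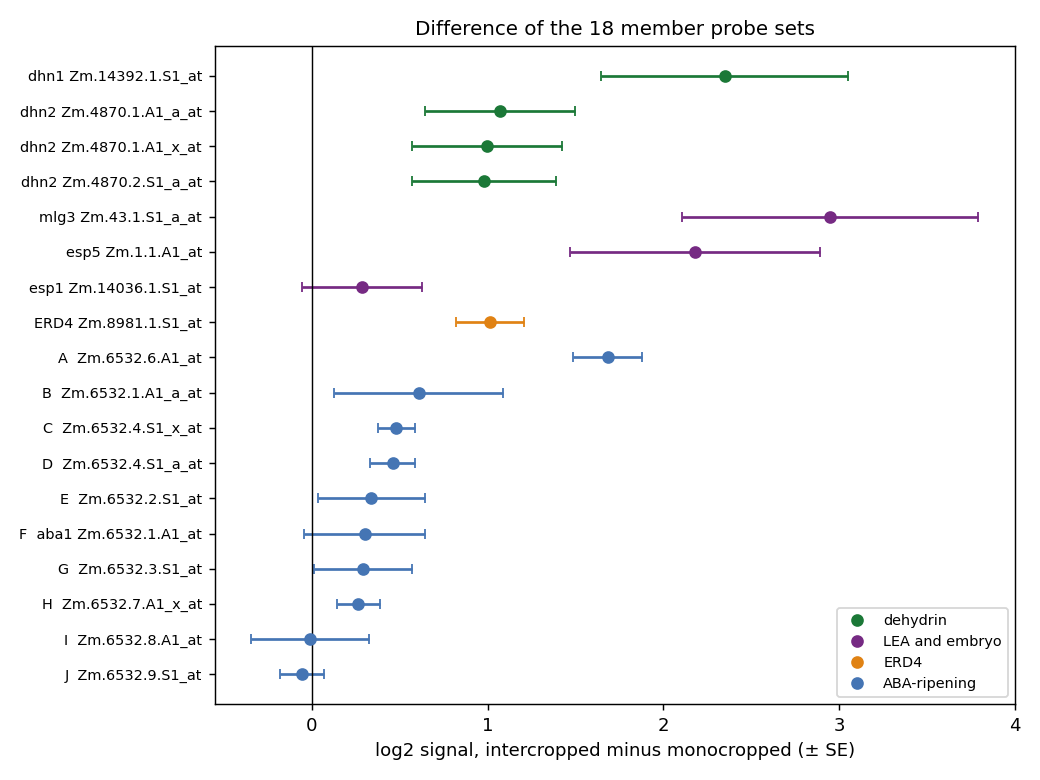
Log2 difference, intercropped minus monocropped, for each of the 18 probe sets, with bars of 1 moderated standard error and colours for the 4 families. The values run from -0.06 for ABA-ripening probe set J to 2.95 for mlg3, and the widest bars belong to mlg3, esp5 and dhn1.

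The spread of the members around their group means, pooled over both groups, does not use the difference between the groups. Their within-group SD of log2 signal had a median of 0.51, against 0.21 over all probe sets tested. It was above that of the median probe set in 14 of 18 members and above the 90th percentile in 10 of 18. The SD was 1.38 for mlg3, 1.16 for esp5 and 1.15 for dhn1, which placed all of them above 99% of the probe sets tested. The SD was 0.27 for ERD4, 0.27 for ABA-ripening probe set A and 0.08 for J. The dhn2 probe sets were spread mainly in one group, with SDs of 0.15 to 0.21 in intercropped and 0.93 to 0.97 in monocropped roots. These members share arrays, and several share a gene, so the counts are not independent.

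Part of that spread lay on the second monocropped array. For mlg3 and esp5 the largest deviations lay instead on the second intercropped array, 1.60 and 1.61 log2 units above their group means. The second monocropped array was the lowest of its group in 15 of 18 members (83.3%), beside 33.7% of the probe sets tested. The dehydrin probe sets were a median of 1.11 log2 units below their monocropped mean there, and the LEA and embryo probe sets 0.85 below. The third monocropped array was the highest of its group in 13 of 18 members (72.2%), beside 32.2% of those tested. The second intercropped array was the highest of its group in 9 of 18 members (50%), beside 33.6%. Over all probe sets tested, the median deviation from the group mean was between -0.02 and 0.02 on every array. On the second monocropped array zrp4 was also at its lowest. The sum of the root markers was 787 on that array and nearly the same, 788, on the first intercropped array, the lowest values of all arrays. Among the monocropped arrays, each nas1 probe set was lowest on the second. The brighter nas1 probe set, at 225, and ys1, at 212, still stayed above all intercropped arrays. A dim nas1 probe set, at 34.4, did not. The green tissue sum there, 4272, was the highest of the monocropped arrays. The part of these in the members' levels was not tested.

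**Figure D4:**
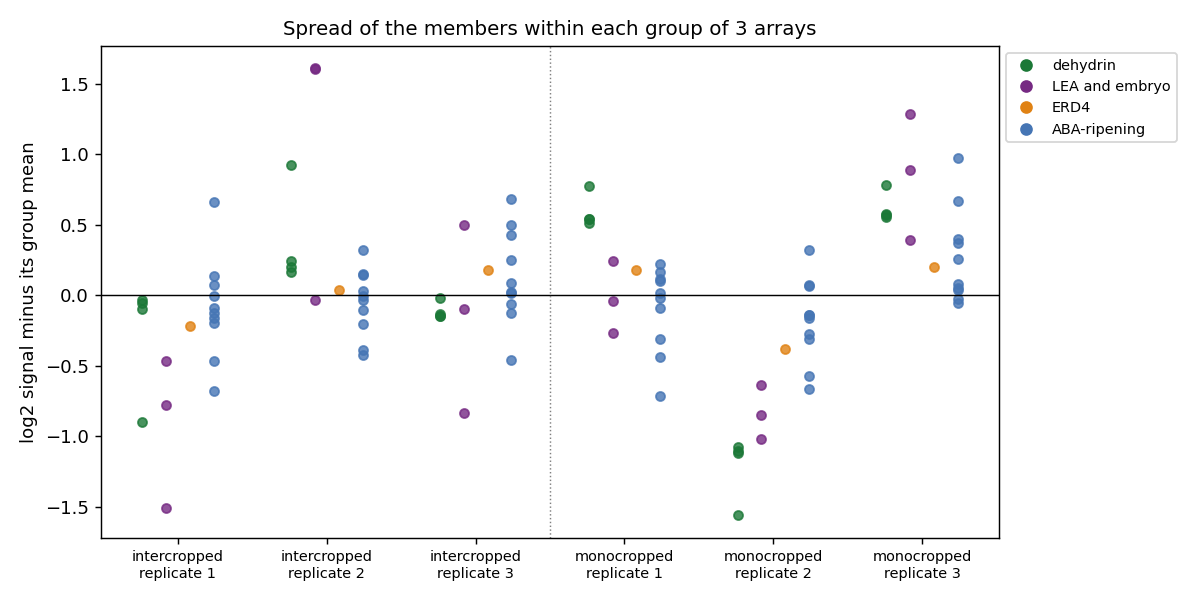
Log2 signal of each member minus the mean of its group, for each array, intercropped on the left and monocropped on the right, coloured by family. On the second monocropped array 15 of the 18 points are below 0, and on the third 16 of 18 are above 0. The 2 highest points of all, mlg3 and esp5, lie on the second intercropped array.

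Other genes of the pathway gave 0 calls in either direction by limma at an adjusted p of 0.05, over lists chosen by name. The member probe sets were left out, but the second probe set of aba1 stayed on the list of ABA signalling and response. An unadjusted limma p below 0.05 was found for 1 of 1 tested probe set of ABA synthesis and 2 of 16 of ABA signalling and response. It was found for 3 of 7 of compatible solutes, 2 of 11 of dehydration and cold response and 0 of 1 of seed maturation. Among the 3 of compatible solutes was lpa1, titled low phytic acid1, a title that names no compatible solute. The share over all probe sets tested was 11.1%. Vp14, an epoxycarotenoid dioxygenase that makes the precursor of ABA, was the only entry on the list of ABA synthesis. It had 145, 211 and 269 in intercropped roots, against 130, 105 and 119 in monocropped roots. All intercropped arrays were above the monocropped ones, and the log2 difference of 0.78 ± 0.24 had an adjusted p of 0.316 by limma.

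Of 16 tested probe sets of ABA signalling and response, 8 had a higher and 8 a lower mean in intercropped roots, and the median log2 difference was 0.01. The probe sets with the smallest p were the Asr protein above and one similar to a type 2C protein phosphatase, a class that restrains ABA signalling. The phosphatase probe set had 371, 629 and 742 in intercropped roots, against 320, 352 and 417 in monocropped roots. Those groups overlapped, and the log2 difference of 0.63 ± 0.26 had an adjusted p of 0.437 by limma.

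Of 7 probe sets for compatible solutes, 4, lpa1 among them, were higher and 3 lower in intercropped roots (median log2 difference 0.05). A probe set similar to galactinol synthase, the enzyme that opens the synthesis of raffinose sugars, had 653, 1434 and 1370 in intercropped roots, against 507, 401 and 445 in monocropped roots. Its groups were apart, with the first intercropped array the nearest to the monocropped arrays. The log2 difference was 1.27 ± 0.30 with an adjusted p of 0.235 by limma. Without the first intercropped array it was 1.64, with an adjusted p of 0.0339 by limma. The fits that left out any other single array called 0 probe sets. A probe set similar to a trehalose-phosphatase, which releases trehalose, had 32.8, 35.9 and 45.8 in intercropped roots, against 54.1, 65.0 and 60.1 in monocropped roots. This dim probe set had its intercropped arrays below the monocropped ones, with a log2 difference of -0.66 ± 0.19 and an adjusted p of 0.291 by limma.

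Of 11 probe sets of dehydration and cold response, 5 were higher and 6 lower in intercropped roots (median log2 difference -0.07). The cold acclimation protein COR413-PM1 had 2161, 2721 and 2338 in intercropped roots, against 1905, 1185 and 1602 in monocropped roots. The early drought induced protein had 4711, 4343 and 4580 in intercropped roots, against 4148, 3520 and 3678 in monocropped roots. Both had intercropped arrays above all monocropped arrays, and in both the second monocropped array was the lowest. Their log2 differences were 0.64 ± 0.18 and 0.27 ± 0.09, with adjusted p of 0.287 and 0.341 by limma.

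Other seed genes were mixed in signal. Vp1, the seed transcription factor that works with ABA, was read by 4 probe sets with signals of 4.65 to 47.2 in intercropped roots and 6.80 to 40.4 in monocropped roots. The storage globulin genes glb1, glb2 and glb3 had signals of 13.5 to 43.3 in intercropped roots and 16.7 to 49.1 in monocropped roots. These vp1 and globulin probe sets were below 50 on every array. The oleosin gene ole1 reached 51.8 in intercropped and 54.4 in monocropped roots, and some zein probe sets of the seed storage list were bright, up to 2566 in intercropped and 2373 in monocropped roots. On the list of seed maturation only cl2-2, a legumin-like gene, was tested, with 186, 162 and 257 in intercropped roots against 203, 272 and 180 in monocropped roots. Those groups overlapped, and the log2 difference of -0.12 ± 0.23 had an adjusted p of 0.887 by limma.

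The probe sets with a name whose pattern was closest to that of a member were ranked by the root mean square (RMS) difference between log2 signals, each centred on its mean over the 6 arrays, among 4645 candidates that were not members. That ranking takes in the difference between the groups, so shared gaps and extremes follow from the ranking and support nothing. Closest to dhn1 was a probe set titled manganese superoxide dismutase SOD-3, at an RMS of 0.13 log2 units, beside a median of 1.51 over all candidates. It had 486, 1679 and 895 in intercropped roots, against 323, 68.8 and 386 in monocropped roots. Every array stood in nearly the same relation to the mean as in dhn1. That title is uncertain, because the platform annotation assigns it to a different transcript cluster with no gene. The probe set of sod3 itself, chosen after its values were seen, had 1781, 2212 and 1723 in intercropped roots against 1883, 1762 and 1904 in monocropped roots, an RMS of 1.45 from dhn1.

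Next in likeness to dhn1 came probe sets similar to a hypothetical Arabidopsis protein (RMS 0.39), to a phosphoglycerate mutase of glycolysis (0.42), to an unknown protein (0.51) and to another hypothetical protein (0.62). The phosphoglycerate mutase probe set had 84.2, 366 and 109 in intercropped roots, against 30.7, 12.6 and 36.0 in monocropped roots. Its extremes lay on the same arrays as in dhn1, which the ranking selects for. All its monocropped signals were below 50, so it passed the condition for testing through the intercropped group. Among the members, esp5 (0.63) and mlg3 (0.71) were the closest to dhn1.

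For mlg3 the nearest named probe sets were one similar to a hypothetical protein (RMS 0.44), the same phosphoglycerate mutase-like (0.54) and unknown protein-like (0.69) probe sets as for dhn1, one similar to an expressed protein (0.72) and the one titled SOD-3 (0.73), beside a median of 1.86 over all candidates. Of these 5, 3 were also among the 5 nearest to dhn1. The nearest member to mlg3 was esp5, at 0.61.

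ERD4 had different neighbours and a median RMS of 0.59 over all candidates. They were probe sets similar to a hypothetical protein (0.055), to a benzoquinone reductase (0.11 and 0.13 for a pair of them), to a senescence-associated protein (0.13) and to a heat shock transcription factor (0.14). The heat shock factor probe set had 166, 206 and 202 in intercropped roots, against 102, 56.0 and 98.4 in monocropped roots. As in ERD4, its groups were apart and the second monocropped array was the lowest, which the ranking by likeness selects for.

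**Figure D5:**
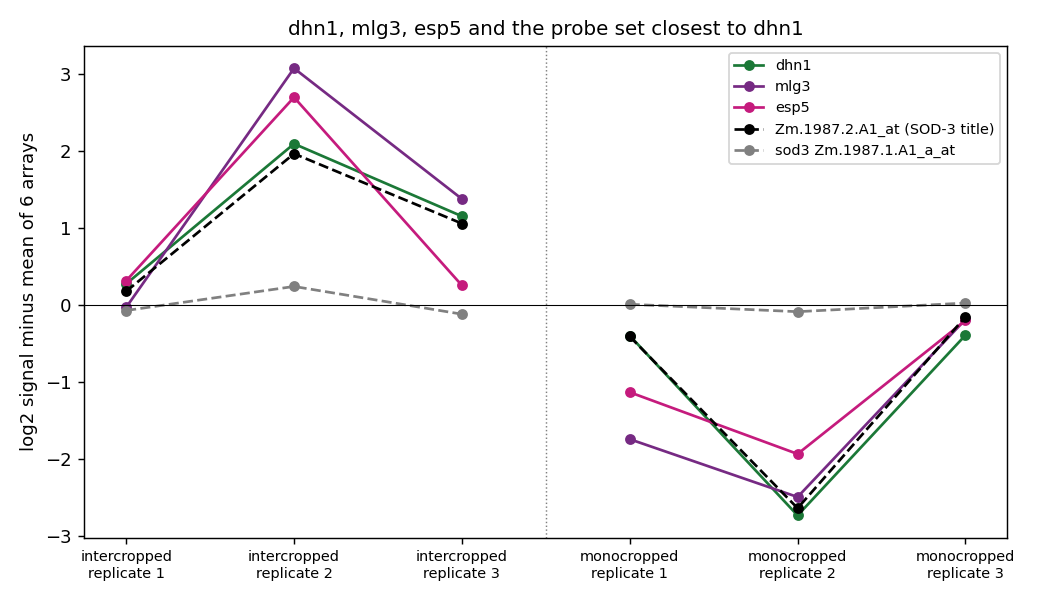
Log2 signal minus its mean over 6 arrays for dhn1, mlg3, esp5, the probe set closest to dhn1 (titled SOD-3, dashed black) and the probe set of sod3 (dashed grey), intercropped on the left and monocropped on the right. Lines join the arrays of 1 group only to guide the eye. Dhn1 and that probe set nearly coincide on all arrays (RMS 0.13), while sod3 stays near 0.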

How the data were processed

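Root RNA of 3 intercropped and 3 monocropped maize samples was measured on Affymetrix maize arrays. The deposited table holds intensity values that the authors had summarised and scaled, with GCOS 1.4 named in the submitters' processing notes. The summary algorithm is not stated there. A table filtered by the authors holds the same intensities as log2 values. Per the file headers, the authors' SAM output gives a score, a log2 difference and a fold change as a ratio, none of which was used as a result. Its log2 differences equalled those computed here (largest difference 8.4e-15).

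Here 179 control probe sets were left out, and signals were floored at 1 before taking log2. Probe sets with at least 50 on at least 3 arrays (13116) were tested with limma 3.58.1 in R 4.3.3 (eBayes with trend, two-sided, Benjamini-Hochberg). Log2 differences had standard errors of 0.18 at the median, and the number of arrays limits the precision. The script was tested on simulated data. Alternatives were quantile normalization, equal medians, other filters, log2 of signal plus 32, no variance trend, a replicate block, and leaving out each array.

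The members and lists were chosen with earlier results of these data known. Named genes were all members, the 2 probe sets of smallest p in each pathway list, and the 5 nearest in pattern to dhn1, mlg3 and ERD4. The root markers, lpa1, vp1, the globulins, ole1, the zeins and sod3 fall outside that rule and were named after their values were seen. List entries that a word had matched wrongly were removed by name after the tables were opened. The RefSeq gene list of assembly Zm-B73-REFERENCE-NAM-5.0 served for names and gene order only, and all 7 named member genes were in it.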

Additional observations from a re-analysis of the deposited data

How the results depend on the processing

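Under every alternative that kept the choice of members, 15 to 17 members were higher in intercropped roots. The 15 came from a mean filter that left 16 members. With all arrays kept, 10 or 11 members had groups that did not overlap. Groups of fewer arrays stand apart more easily, so that count is not given with arrays left out. The share over all probe sets is not given for these alternatives. The difference between the groups had helped to pick the members, so these counts are a description and support nothing. The members' median log2 difference lay between 0.34 and 0.86 (0.40 to 0.86 with 1 array left out, highest without the third monocropped array), lowest without both second arrays, an alternative chosen after seeing the data. Without both second arrays the log2 difference was 1.39 for ABA-ripening probe set A, 1.11 for dhn1 and 0.95 for esp5. With 1 probe set per gene or cluster the median was 0.48, and without the 3 probe sets taken by identifier 0.46. With log2 of signal plus 32, 1 probe set of the array was called by limma, and it was not a member. Leaving out 1 array at a time gave 0 to 34 calls on the array and 0 to 1 among the pathway genes. All 34 (0.259% of the 13116 tested) came without the first intercropped array, whose actin ratio was 4.39 and GAPDH ratio 2.28. The cause was not tested. They included probe set A, 1 of the 18 members. It had been picked with the help of this difference, so its call supports nothing. The fit with a replicate block gave 0 calls and the same median of 0.54. Same-numbered arrays of the groups did not all deviate together (correlations over probe sets 0.27, -0.07 and -0.00). The labels state no pairing, and these correlations cannot show whether there was one.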
